A study of Mus musculus with 5 samples.

Results

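The 38 genes described here are typical of hepatocytes and, apart from Ttc36, encode enzymes and transporters. Their main pathways are the urea cycle, the methionine cycle, the breakdown of tyrosine, tryptophan and histidine, bile acid synthesis, drug metabolism and glucose output. They were chosen by name as a list, and 36 of the 38 were measured by a probe set naming that gene alone, among 19938 genes measured in this way. Ass1, whose 2 probe sets also name a further gene, and Sds are not analysed here. The study hybridised gut RNA to Affymetrix Mouse Gene 1.0 ST arrays. There were 5 groups, each with 1 array, and the mice were 5-week-old males of ddY, an outbred stock. Per the labels, every mouse had 2 oral administrations and gut was taken 4 hours after the last. The groups were LG21+Asp (the Lactobacillus gasseri strain OLL2716 and aspirin), Tep+Asp (teprenone, a mucosal protective drug, and aspirin), GA+Asp (gum arabic, the vehicle, and aspirin), LG21+GA (the strain and vehicle) and GA+GA (vehicle at both administrations). Doses are not given in the sources used here, nor is the number of mice behind an array. No group has a replicate array, so no difference below was set against a spread between animals and none was tested.

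Hepatocytes carry out most of the body's disposal of ammonia as urea and of excess amino acids. They also make bile acids from cholesterol, oxidise and conjugate drugs, and release glucose during fasting. Some of the enzymes involved are nearly restricted to the liver, while others, such as those of cysteine synthesis, alcohol oxidation and folate metabolism, are also known from other tissues, the gut among them.

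Values are log2 expression values as deposited, and a difference of 1 is 2-fold. Alb, which encodes serum albumin, the main secreted protein of hepatocytes, served as the guide gene. It stood at 11.80 in LG21+Asp, 10.41 in Tep+Asp, 7.43 in GA+Asp, 12.37 in LG21+GA and 12.69 in GA+GA. Alb was thus highest in GA+GA and lowest in GA+Asp, with LG21+GA above LG21+Asp and LG21+Asp above Tep+Asp. A gene was said to follow Alb where its range over the 5 arrays was at least 1 and at least 9 of the 10 pairs of arrays were ordered as in Alb, and to be steady where its range was under 0.5. A gene whose highest value did not exceed the background level of that array was set aside first. The background level was the 95th percentile of 1035 probe sets for olfactory receptors, and it lay between 6.25 and 6.34. These patterns were read from the same values that they sort and are a description.

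Of the 36 measured genes 20 followed Alb, 2 lay between the patterns, 9 were steady and 5 were near background. Over all 19938 genes, Alb itself included, 0.456% followed Alb, 1.18% lay between, 72.5% were steady and 25.8% were near background. At least 9 of 10 pairs were in the order of Alb for 27 of the 36 genes, against 1.84% of all genes. The GA+GA array had the strictly highest value for 31 of the 36, against 11.7% of all genes. Among genes whose mean level exceeded the median of all genes, as it did for 19 of the 36, 0.321% followed Alb and 98.6% were steady. The list had been written with earlier results of these arrays known, and these shares are no independent support for a pattern. In whole tissue, fewer cells of a type and less RNA per cell cannot be told apart.

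Just inside the range that defines following Alb was Slc27a5 (1.00), and just outside it Cyp8b1 (0.99). Ttc36, a gene for a tetratricopeptide repeat protein, was the steady gene with the widest range (0.44), and Cbs at 0.52 lay just beyond. Being steady did not exclude the order of Alb, which Ttc36 had in 10 of 10 pairs, and Asl and Cyp27a1 in 9.

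**Figure D1:**
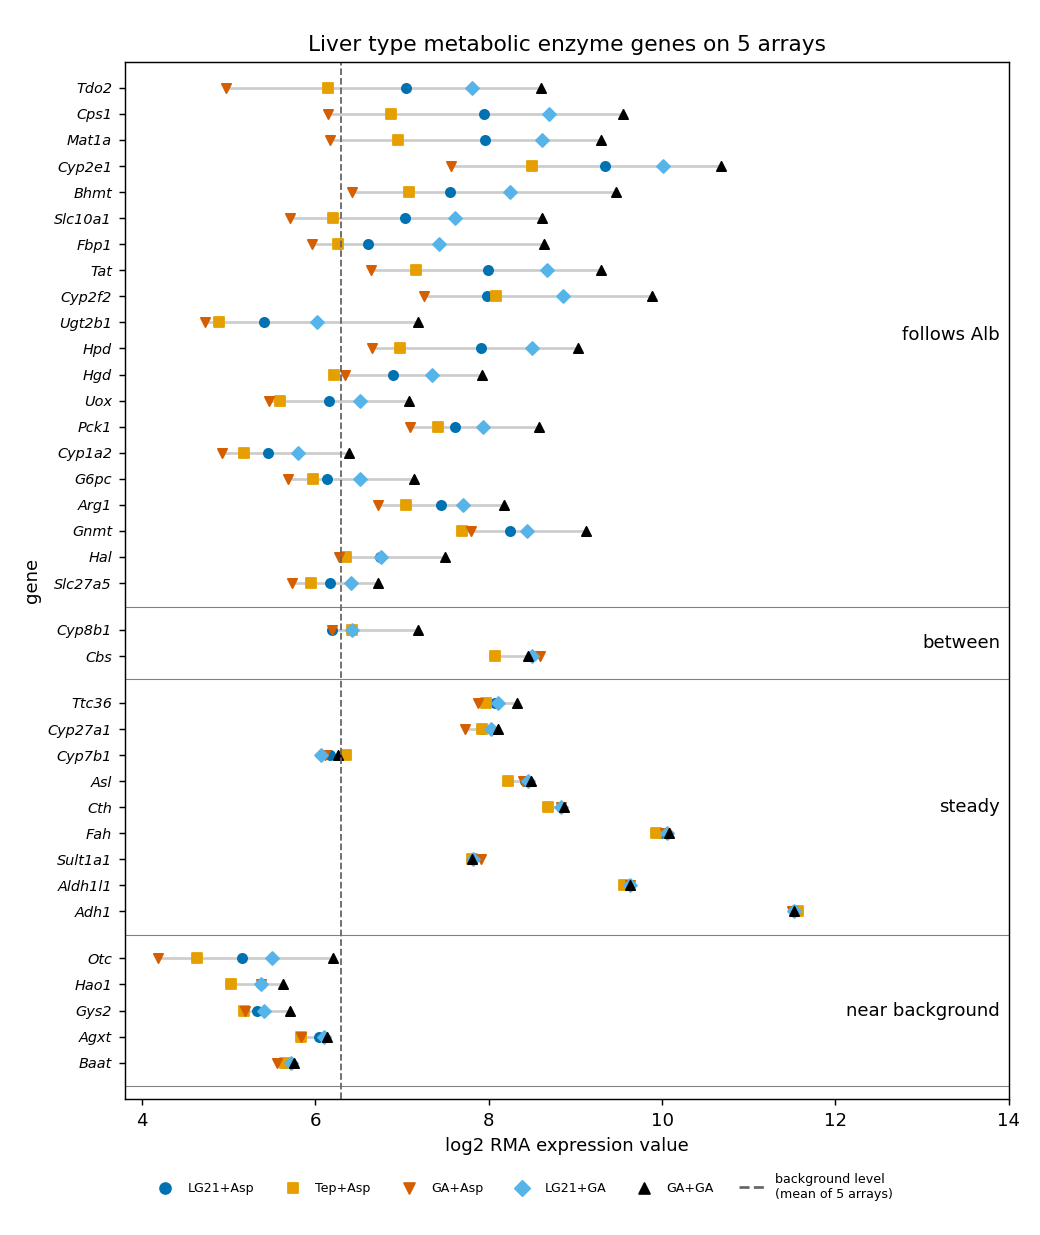
Log2 expression values (x axis) of the 36 measured genes (rows) on the 5 arrays, 1 symbol per array, grouped by pattern and sorted by range. Among the 20 genes following Alb the triangle of GA+GA is always rightmost and ranges run to 3.63 in Tdo2, whose GA+Asp value lies below background, while the 9 steady genes span 0.44 or less; the dashed line is the mean background level.

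Promoters of 4 genes are shown because they contrast genes that moved together over the arrays with a steady one. They are the 250 bases before the start of each gene in RefSeq on GRCm38.p6, the assembly of the C57BL/6J strain, which is not the strain used here, and all 4 lie on the plus strand. Capitals mark matches on either strand. The letters searched for the factor HNF1 were GTTAAT. Those for HNF4 were CAAAGTCCA, and those for the C/EBP family TTGCNNAA. For the TATA box they were TATAAA, which reads TTTATA on the other strand, as in Hal. No matches overlap in the sequences shown. G6pc (follows Alb, chr11:101367466-101367715), Hal (follows Alb, chr10:93488518-93488767), Cyp2e1 (follows Alb, chr7:140763569-140763818) and Aldh1l1 (steady, chr6:90550543-90550792) read, 5′ to 3′:
G6pc: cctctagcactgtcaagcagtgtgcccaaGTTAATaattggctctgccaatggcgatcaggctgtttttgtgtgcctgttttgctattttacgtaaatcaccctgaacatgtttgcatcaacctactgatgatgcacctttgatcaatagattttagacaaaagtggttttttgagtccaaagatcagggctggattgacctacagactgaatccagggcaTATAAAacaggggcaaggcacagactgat
Hal: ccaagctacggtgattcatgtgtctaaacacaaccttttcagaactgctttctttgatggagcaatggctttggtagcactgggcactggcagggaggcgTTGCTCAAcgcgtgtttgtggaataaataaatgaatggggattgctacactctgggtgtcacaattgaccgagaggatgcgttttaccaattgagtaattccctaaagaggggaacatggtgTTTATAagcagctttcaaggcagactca
Cyp2e1: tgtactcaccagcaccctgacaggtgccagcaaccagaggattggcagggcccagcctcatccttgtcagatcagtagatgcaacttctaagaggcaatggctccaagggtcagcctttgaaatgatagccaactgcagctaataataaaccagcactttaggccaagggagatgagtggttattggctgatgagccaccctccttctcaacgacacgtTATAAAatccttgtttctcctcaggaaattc
Aldh1l1: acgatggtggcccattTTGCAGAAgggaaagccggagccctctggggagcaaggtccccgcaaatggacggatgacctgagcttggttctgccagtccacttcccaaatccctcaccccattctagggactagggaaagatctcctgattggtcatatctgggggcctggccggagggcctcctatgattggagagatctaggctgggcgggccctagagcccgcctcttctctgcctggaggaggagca

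The TATA matches begin 29 bases before the start in G6pc, 28 in Hal and 31 in Cyp2e1. Promoters were in the RefSeq table for 27 of the 38 genes, 16 of them following Alb and 5 steady. TATAAA was found anywhere in the window for 7 of the 16 and 0 of the 5, against 12.4% of 32851 promoters. These are the promoters of the table with 1 chromosome left out. The listed genes were cut to 1 promoter each and the 32851 were not, so the shares differ in unit. The HNF1 letters were found in 2 of 16 and 1 of 5 (6.43% of the 32851) and the C/EBP letters in 3 of 16 and 1 of 5 (9.56%). The HNF4 letters were in 0 of 16 and 0 of 5 (0.384%). Any of the 4 motifs was found in 9 of the 16 and 2 of the 5. The promoters shown, picked by name, all hold a match and do not stand for the rest. These counts describe letters in a window and say nothing of binding.

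The urea cycle converts ammonia to urea, and its genes split between the patterns. Cps1, which makes carbamoyl phosphate in the first step, stood at 7.95 in LG21+Asp, 6.88 in Tep+Asp, 6.15 in GA+Asp, 8.70 in LG21+GA and 9.55 in GA+GA. Its 5 values had the order of Alb, and the value in GA+Asp was below the background level of that array. Where a value lay at or below this level, a fold is given as a bound computed against the level, and Cps1 was at least 9.89-fold lower in GA+Asp than in GA+GA.

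Arg1, which releases urea in the last step, followed Alb over a smaller range, with 7.45 in LG21+Asp, 7.05 in Tep+Asp, 6.72 in GA+Asp, 7.70 in LG21+GA and 8.17 in GA+GA. Asl, which cleaves argininosuccinate and is active in many tissues, was steady at 8.42 in LG21+Asp, 8.22 in Tep+Asp, 8.39 in GA+Asp, 8.45 in LG21+GA and 8.48 in GA+GA. Otc, which forms citrulline, also had the order of Alb in 10 of 10 pairs and a range of 2.02, but its highest value, 6.20 in GA+GA, was under the background level of 6.29, and no fold is given. The cycle thus held steep, shallow and steady genes side by side.

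Other genes of the urea cycle and of glutamine metabolism were taken from a list. Of 9 measured, 0 followed Alb and 8 were steady. Over all genes 0.456% followed Alb and 72.5% were steady, shares that also stand beside the counts of the other lists below. Arg2, the mitochondrial arginase of tissues outside the liver, was 0.24 higher in GA+Asp than in GA+GA, and the glutamine synthetase gene Glul 0.02 higher.

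Methionine metabolism showed the same split along the pathway. Mat1a, the liver form of the enzyme that makes S-adenosylmethionine, stood at 7.96 in LG21+Asp, 6.95 in Tep+Asp, 6.16 in GA+Asp, 8.62 in LG21+GA and 9.29 in GA+GA, and was at least 8.27-fold lower in GA+Asp than in GA+GA. Bhmt, which returns homocysteine to methionine with betaine, stood at 7.55 in LG21+Asp, 7.08 in Tep+Asp, 6.42 in GA+Asp, 8.25 in LG21+GA and 9.47 in GA+GA (8.28-fold lower in GA+Asp). Both had all 10 pairs of arrays in the order of Alb.

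Bhmt had 3 probe sets. The second one gave -3.39 for GA+Asp minus GA+GA, close to the -3.05 of the one used, while the third, at 5.51 in GA+Asp and 5.95 in GA+GA, lay below the background level and gave -0.44.

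Gnmt, which consumes S-adenosylmethionine to methylate glycine, followed Alb in 9 of 10 pairs, with 8.24 in LG21+Asp, 7.69 in Tep+Asp, 7.79 in GA+Asp, 8.44 in LG21+GA and 9.12 in GA+GA. The pair out of order was Tep+Asp and GA+Asp. Cth, which forms cysteine from cystathionine, was steady, with 8.84 in LG21+Asp, 8.69 in Tep+Asp, 8.84 in GA+Asp, 8.84 in LG21+GA and 8.86 in GA+GA. Cbs, which makes the cystathionine, stood at 8.50 in LG21+Asp, 8.08 in Tep+Asp, 8.59 in GA+Asp, 8.50 in LG21+GA and 8.45 in GA+GA. Tep+Asp was the low array for both genes of cysteine synthesis, and GA+Asp was the highest of the 5 for Cbs.

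Among 11 other genes of sulphur amino acid metabolism 0 followed Alb, 4 lay between and 7 were steady. Dmgdh (range 1.00), Cdo1 (0.91), Bhmt2 (0.86) and Pemt (0.52) had 9 of 10 pairs in the order of Alb. Each was lowest in Tep+Asp, as Gnmt was. Mat2b, the regulatory subunit of the S-adenosylmethionine enzyme of other tissues, had a range of 0.11.

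Amino acid breakdown held the largest share of genes following Alb, 5 of 6. Tdo2, which opens the ring of tryptophan, had 7.04 in LG21+Asp, 6.14 in Tep+Asp, 4.97 in GA+Asp, 7.81 in LG21+GA and 8.61 in GA+GA. Values in Tep+Asp and GA+Asp lay under the background level, and the gene was at least 5.13-fold lower in GA+Asp than in GA+GA.

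Among the enzymes of tyrosine breakdown, Tat, Hpd, Hgd and Fah act in that order. Tat, the aminotransferase of the first step, stood at 7.99 in LG21+Asp, 7.15 in Tep+Asp, 6.64 in GA+Asp, 8.68 in LG21+GA and 9.30 in GA+GA. Hpd, the next enzyme, stood at 7.91 in LG21+Asp, 6.98 in Tep+Asp, 6.66 in GA+Asp, 8.49 in LG21+GA and 9.03 in GA+GA. Against GA+GA, Tat was 6.31-fold and Hpd 5.19-fold lower in GA+Asp.

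Hgd, which cleaves homogentisate, stood at 6.90 in LG21+Asp, 6.22 in Tep+Asp, 6.34 in GA+Asp, 7.34 in LG21+GA and 7.92 in GA+GA, with only Tep+Asp and GA+Asp out of the order of Alb. Fah, which completes the pathway and whose loss in the liver causes tyrosinaemia, was steady at 9.99 in LG21+Asp, 9.93 in Tep+Asp, 10.04 in GA+Asp, 10.05 in LG21+GA and 10.08 in GA+GA. For these genes the GA+Asp minus GA+GA difference was -2.66 for Tat, -2.38 for Hpd, -1.58 for Hgd and -0.04 for Fah. Hgd in GA+Asp lay just above the background level of that array, 6.25, which limits the size of its difference. These genes are not all the enzymes of the pathway, and a gradient along it was not tested.

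Hal, which removes the amino group of histidine and is also known from the epidermis, stood at 6.74 in LG21+Asp, 6.35 in Tep+Asp, 6.27 in GA+Asp, 6.76 in LG21+GA and 7.50 in GA+GA. It kept all 10 pairs in the order of Alb although LG21+Asp and LG21+GA differed by only 0.02. Squamous epithelium markers, which the stomach of the mouse expresses in its forepart, had a mean of 7.72 in LG21+Asp, 9.42 in Tep+Asp, 8.76 in GA+Asp, 8.93 in LG21+GA and 8.97 in GA+GA (10 genes, 9 of them above background on all arrays). Hal was lowest in GA+Asp, and not in LG21+Asp, where these markers were lowest; their part in its values was not tested.

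Of 13 other genes in these breakdown pathways 1 followed Alb, 2 lay between, 9 were steady and 1 was near background. The follower was Kynu, kynureninase, with 6.31 in LG21+Asp, 5.98 in Tep+Asp, 5.64 in GA+Asp, 6.30 in LG21+GA and 7.01 in GA+GA. Kynu was above background in GA+GA alone. Haao, which acts on a product of Kynu, lay between with a range of 0.99. Pcbd1, which recycles the cofactor of phenylalanine hydroxylation, was steady with a range of 0.05.

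Genes of drug and alcohol metabolism split into 4 that followed Alb and 2 that were steady. Cyp2e1, the cytochrome that oxidises ethanol and small solvents, stood at 9.35 in LG21+Asp, 8.49 in Tep+Asp, 7.56 in GA+Asp, 10.01 in LG21+GA and 10.68 in GA+GA. All values lay above background, and the gene was 8.65-fold lower in GA+Asp than in GA+GA.

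Cyp2f2, which oxidises naphthalene and is also known from airway club cells, stood at 7.98 in LG21+Asp, 8.08 in Tep+Asp, 7.25 in GA+Asp, 8.86 in LG21+GA and 9.88 in GA+GA. It was the only gene of the 20 that was higher in Tep+Asp than in LG21+Asp, by 0.10. Ugt2b1, a glucuronosyltransferase, had 5.41 in LG21+Asp, 4.89 in Tep+Asp, 4.72 in GA+Asp, 6.01 in LG21+GA and 7.18 in GA+GA, above background in GA+GA alone. Cyp1a2, which metabolises caffeine, was above background in GA+GA alone too, at 6.39, and ran down to 4.92 in GA+Asp.

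Adh1, the alcohol dehydrogenase, was steady at 11.53 in LG21+Asp, 11.57 in Tep+Asp, 11.50 in GA+Asp, 11.53 in LG21+GA and 11.53 in GA+GA. Sult1a1, a phenol sulfotransferase, stood between 7.81 and 7.91 on all 5 arrays. Neither had more than 4 of 10 pairs in the order of Alb.

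Among 20 other genes of drug metabolism 3 followed Alb, 1 lay between, 13 were steady and 3 were near background. Cyp3a11, a major drug oxidase of liver and gut, had the widest range of any gene on these pathway lists, with 7.27 in LG21+Asp, 5.97 in Tep+Asp, 4.29 in GA+Asp, 8.72 in LG21+GA and 9.39 in GA+GA, the values in Tep+Asp and GA+Asp lying under the background level. Cyp2c29 (range 1.99) and Cyp4a14 (1.60) were the others that followed Alb, Cyp2c29 being above background in GA+GA alone. Cyp2s1, a cytochrome known from epithelia, and the glutathione transferase gene Gstm1 were steady, with ranges of 0.08 and 0.06. Cytochromes of the Cyp3a and Cyp2c families, glucuronosyltransferases of the Ugt2b family and mu class glutathione transferases each resemble their relatives closely, so single genes of these families are uncertain.

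Bile acid genes were the most divided group. Slc10a1, the sodium-dependent transporter that takes bile acids up from blood into hepatocytes, stood at 7.04 in LG21+Asp, 6.20 in Tep+Asp, 5.70 in GA+Asp, 7.61 in LG21+GA and 8.61 in GA+GA. Tep+Asp and GA+Asp lay under the background level, and the gene was at least 5.15-fold lower in GA+Asp than in GA+GA. Slc27a5, which activates bile acids for conjugation, followed Alb over a range at the threshold, with 6.17 in LG21+Asp, 5.95 in Tep+Asp, 5.73 in GA+Asp, 6.41 in LG21+GA and 6.73 in GA+GA. It was above background in LG21+GA and GA+GA only.

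Cyp8b1, which sets the share of cholic acid, stood apart mainly through GA+GA, with 6.19 in LG21+Asp, 6.42 in Tep+Asp, 6.19 in GA+Asp, 6.42 in LG21+GA and 7.18 in GA+GA. Cyp27a1, the mitochondrial sterol hydroxylase made in many tissues, was steady at 7.92 in LG21+Asp, 7.92 in Tep+Asp, 7.72 in GA+Asp, 8.03 in LG21+GA and 8.10 in GA+GA. Cyp7b1, the oxysterol hydroxylase of the alternative route, was steady between 6.07 and 6.35, at about the background level. Baat, which joins bile acids to taurine, was near background with values between 5.56 and 5.75.

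The other 13 genes of bile acid synthesis and transport held 2 that followed Alb. They were the uptake carrier gene Slco1b2 (range 1.57) and the canalicular export pump gene Abcb11 (1.08), both above background in GA+GA alone. A further 2 lay between, 5 were steady and 4 were near background. Cyp7a1, the rate-limiting enzyme of the classic route, was among those near background, though with all 10 pairs in the order of Alb. Nr0b2, a nuclear receptor that represses bile acid synthesis, was steady, with 9.26 in GA+Asp and 8.99 in GA+GA.

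Genes of glucose output followed Alb in 3 of 4 cases. Fbp1, the fructose bisphosphatase of liver and kidney, stood at 6.61 in LG21+Asp, 6.26 in Tep+Asp, 5.96 in GA+Asp, 7.43 in LG21+GA and 8.63 in GA+GA, and was at least 5.23-fold lower in GA+Asp than in GA+GA. Pck1, which commits oxaloacetate to glucose synthesis and is also made in fat, kidney and small intestine, stood at 7.61 in LG21+Asp, 7.42 in Tep+Asp, 7.09 in GA+Asp, 7.93 in LG21+GA and 8.57 in GA+GA. Pck1 was 2.79-fold lower in GA+Asp than in GA+GA, with every value above background.

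G6pc, the phosphatase that frees glucose, had 6.13 in LG21+Asp, 5.97 in Tep+Asp, 5.68 in GA+Asp, 6.51 in LG21+GA and 7.13 in GA+GA, the first 3 under the background level. Gys2, the liver glycogen synthase, was near background between 5.17 and 5.70. Of 12 other genes of this group 0 followed Alb and 11 were steady, among them the pyruvate carboxylase gene Pcx (range 0.05) and Gys1, the glycogen synthase of other tissues (0.17). The transcriptional coactivator gene Ppargc1a lay between, with 9.41 in GA+Asp and 8.88 in GA+GA.

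In the group of purine, glyoxylate and folate enzymes only Uox followed Alb. This gene for urate oxidase stood at 6.15 in LG21+Asp, 5.59 in Tep+Asp, 5.46 in GA+Asp, 6.52 in LG21+GA and 7.08 in GA+GA, above background in LG21+GA and GA+GA. Aldh1l1, which oxidises formyl folate, was steady at 9.63 in LG21+Asp, 9.56 in Tep+Asp, 9.63 in GA+Asp, 9.63 in LG21+GA and 9.63 in GA+GA. The glyoxylate genes Hao1 (5.03 to 5.63) and Agxt (5.83 to 6.14) were near background on all 5 arrays. Among the 12 other genes of the group 10 were steady and 1, the acyl-CoA synthetase gene Slc27a2, followed Alb, with 8.16 in LG21+Asp, 7.77 in Tep+Asp, 7.63 in GA+Asp, 8.42 in LG21+GA and 9.14 in GA+GA.

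**Figure D2:**
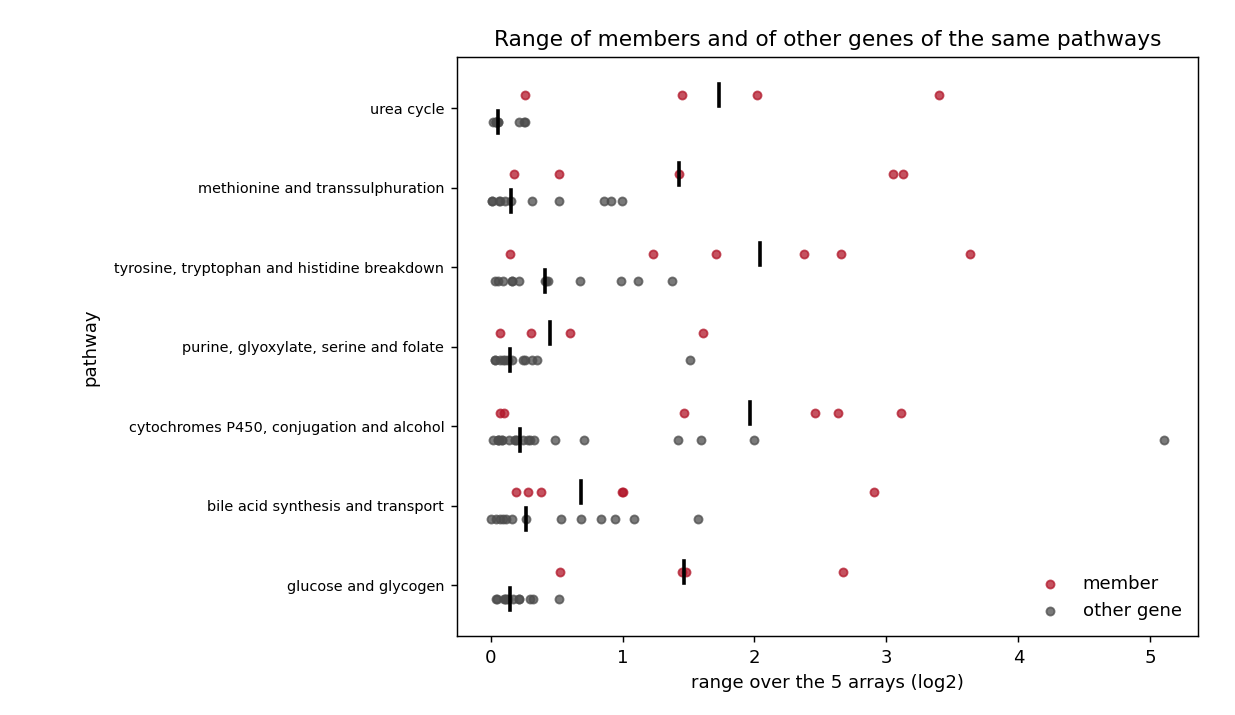
Range over the 5 arrays (x axis, log2) of each listed enzyme gene (red) and of each other gene of the same pathway (grey), 1 point per gene, with the median as a black bar. The median range was 1.44 over the 36 genes, which include Ttc36, not drawn here. It was 0.18 over the 90 others, of which Cyp3a11 at 5.11 is the widest.

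Over the 7 pathway lists, 7 of the 90 other genes followed Alb, 10 lay between, 63 were steady and 10 were near background. Over all genes the shares were 0.456%, 1.18%, 72.5% and 25.8%, so being steady was no particular trait of these lists. Among the followers, Kynu, Slco1b2, Abcb11 and Cyp2c29 were above background in GA+GA alone. Their order over the other arrays thus rests on values at the background level. Of the transcription factors that drive hepatocyte genes 9 were measured, and all 9 were steady, as 72.5% of all genes were. Nr1i3, the nuclear receptor CAR, had the widest range of them (0.47), 9 of 10 pairs in the order of Alb and its highest value, 6.36, in GA+GA. It was above background in GA+GA alone, so its order over the other arrays rests on values at the background level. Of the 9 factors, 7 were above background on all arrays. Hnf4a stood at 10.46 in LG21+Asp, 10.44 in Tep+Asp, 10.45 in GA+Asp, 10.56 in LG21+GA and 10.46 in GA+GA, and Foxa3 was 0.11 higher in GA+Asp than in GA+GA. Hnf4a and Foxa3 are also known from gut epithelium.

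The first comparison set aspirin alone against vehicle. In GA+Asp 21 of the 36 genes were at least 2-fold lower than in GA+GA and 0 were higher, where 0.517% of all genes were lower and 0.015% higher. The 36 had a median difference of -1.39, with 33 below 0, against a median of 0 over all genes. Of the 21, 10 were above background on both arrays, 5 had a bound of at least 2-fold, 5 a bound under 2-fold, and Otc was at the background level on both. The 9 steady genes had differences between -0.44 and 0.10. By role, the 21 included 5 of 6 genes of amino acid breakdown, 4 of 6 of drug and alcohol metabolism, 3 of 4 of glucose output, 3 of 4 of the urea cycle, 3 of 5 of methionine metabolism, 2 of 6 of bile acids and 1 of 4 of the purine, glyoxylate and folate group.

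Markers of other cell types had small median differences in this comparison. The median difference was 0 for 8 gastric and 11 intestinal epithelium markers, -0.01 for 6 kidney tubule markers and 0.02 for 6 pancreatic acinar markers. Squamous markers had a median difference of -0.21. Single markers differed by more, such as the squamous gene Krt1 (-0.47) and the acinar gene Cel (0.42). Kidney markers averaged 6.22 to 6.30 over the arrays, about the background level, and 2 of the 6 were near background. Gastric markers averaged 13.33 to 13.36, where the highest value on any array was 13.87. The part of these levels in the small differences was not tested. The 10 plasma protein genes of hepatocytes, Fgb and Apoh among them, all followed Alb, with a mean level of 7.81 in LG21+Asp, 7.04 in Tep+Asp, 6.52 in GA+Asp, 8.58 in LG21+GA and 9.22 in GA+GA. All 10 plasma protein genes and 20 of the 36 listed genes thus had the pattern of Alb. The part of liver cells in the samples was not tested. The labelled tissue was gut, and its markers included 8 gastric genes, all steady, such as Pgc for pepsinogen (13.51 to 13.55). Of 11 intestinal genes 8 were steady, such as Anpep (11.73 to 11.85), and 2 were near background. Anpep had the highest level of these intestinal genes, which averaged only 7.49 to 7.60 over the arrays.

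LG21 was compared with vehicle in the absence of aspirin. In the genes following Alb, whose direction here is largely fixed by their choice, the LG21+GA minus GA+GA difference lay between -1.22 and -0.32, and the 36 had a median difference of -0.57. At least 2-fold lower were 4 of the 36, against 0.1% of all genes, and 0 were higher, against 0.01% of all genes. They were Bhmt (-1.22), Fbp1 (-1.21), Ugt2b1 (-1.16) and Cyp2f2 (-1.02). Ugt2b1 lay below the background level in LG21+GA, at 6.01, and its bound was 1.80-fold. Among genes above background on both arrays, Cyp2e1 (8.65-fold) and Bhmt (8.28-fold) were lower by the most in GA+Asp; both comparisons share the GA+GA array. Steady genes had differences between -0.21 and 0.01 with LG21.

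On a linear scale the 20 genes kept 24.5% to 68.1% of their GA+GA level in LG21+Asp (median 43.1%), 15.6% to 58.4% in Tep+Asp (26.4%), 8.05% to 49.97% in GA+Asp (18.7%) and 42.9% to 80.1% in LG21+GA (62.8%). Alb kept 54.3% in LG21+Asp, 20.7% in Tep+Asp, 2.63% in GA+Asp and 80.6% in LG21+GA. Every one of the 20 therefore kept a smaller share than Alb in LG21+GA and a larger share in GA+Asp. In GA+Asp 10 of the 20 were at or below the background level, where the share kept can be overstated, and Alb in GA+GA stood at 12.69 where the highest value on any array was 13.87. The part of either limit in this contrast was not tested.

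**Figure D3:**
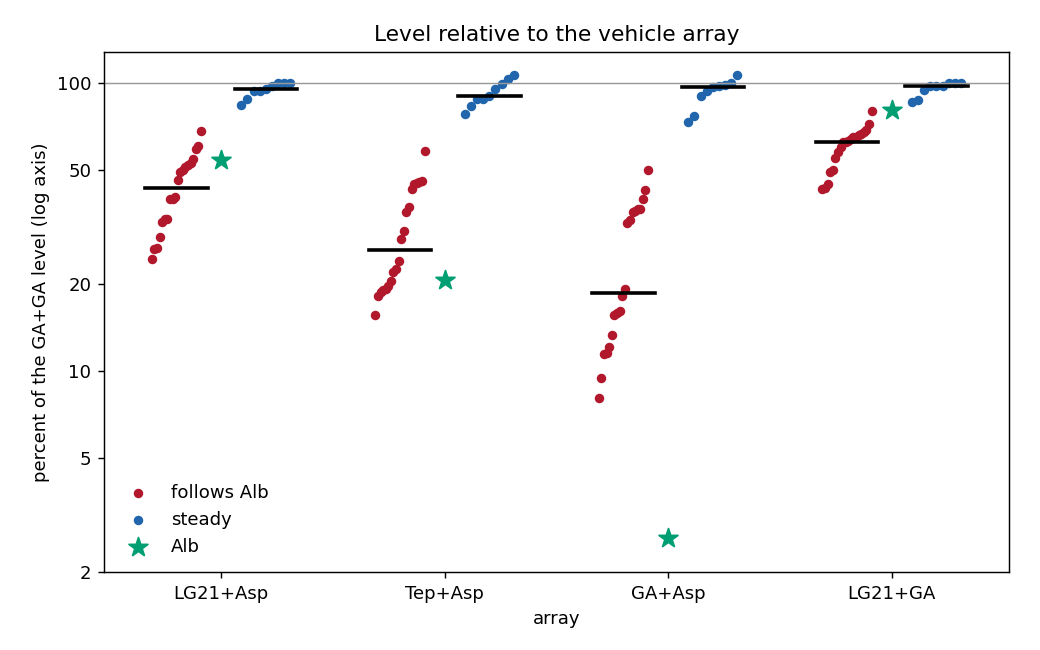
Level on each array as a percentage of the GA+GA level (y axis, log scale) for the 20 genes following Alb (red), the 9 steady genes (blue) and Alb (star), 1 point per gene, with medians as bars. Medians of the 20 genes were 43.1% in LG21+Asp, 26.4% in Tep+Asp, 18.7% in GA+Asp and 62.8% in LG21+GA, while those of the steady genes lay between 90.1% and 98.0%.

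Some of these genes are known in mouse for expression in the periportal or the pericentral zone of the liver lobule. Of 9 measured periportal genes, such as Cps1 and Cyp2f2, 7 followed Alb, Asl was steady and Otc was near background. Of 3 pericentral genes Cyp2e1 and Cyp1a2 followed Alb and Cyp27a1 was steady. Over all genes 0.456% followed Alb. A contrast between the zones was not tested.

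LG21 with aspirin was set against aspirin alone, the pair of arrays nearest to the attenuation of aspirin effects named in the title of the study. With 1 array per group such an attenuation was not tested. The genes following Alb, chosen in part by this pair of arrays, were higher in LG21+Asp than in GA+Asp by 0.45 to 2.07, and 8 of the 36 were at least 2-fold higher, against 0.13% of all genes; 0 were lower, against 0.145%. The 8 were Tdo2 (2.07), Cps1 (1.80), Mat1a (1.79), Cyp2e1 (1.78), Tat (1.35), Slc10a1 (1.34), Hpd (1.26) and Bhmt (1.13). Among them Cyp2e1 (3.44-fold), Tat (2.54-fold), Hpd (2.39-fold) and Bhmt (2.19-fold) lay above background on both arrays; Cps1 had a bound of 3.26-fold and Mat1a one of 3.28-fold. Tdo2 and Slc10a1, below background in GA+Asp, had bounds of only 1.73-fold each. Squamous epithelium markers had a median of -1.13 for LG21+Asp minus GA+Asp, and their part in these differences was not tested. The median over the 36 was 0.46, against 0 over all genes. The steady genes had differences between -0.09 and 0.20.

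Teprenone with aspirin gave a smaller median difference from GA+Asp than LG21 with aspirin, though Cyp2f2 differed more with teprenone (0.83) than with LG21 (0.73). Of the 20, again chosen in part by this pair, 18 were higher in Tep+Asp than in GA+Asp, and Gnmt (-0.10) and Hgd (-0.13) were lower. The single gene at least 2-fold higher was Tdo2 (1.17), below background on both arrays, where 0.0802% of all genes were higher by as much. At least 2-fold lower were 0 of the 36, against 0.0201% of all genes. The median of the 36 was 0.21. Cbs was lower in Tep+Asp by 0.52 and Asl by 0.17. The strictly lowest array was Tep+Asp for 10 of the 36 genes, 5 of them steady (Asl, Cth, Fah, Aldh1l1 and Sult1a1), against 14.4% of all genes.

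Set directly against each other, LG21+Asp was higher than Tep+Asp in 19 of the 20 genes following Alb, which were chosen in part by this pair. Squamous epithelium markers had a median of -2.07 for LG21+Asp minus Tep+Asp, a larger shift than any of the 36 genes showed there, and their part in the result was not tested. Cps1 (2.11-fold) and Mat1a (2.01-fold) were at least 2-fold higher, 2 of the 36 against 0.0552% of all genes, and both were above background on both arrays. No gene of the 36 was 2-fold lower, against 0.231% of all genes. The median of the 36 was 0.31. The comparisons of LG21+Asp and of Tep+Asp with GA+Asp share the GA+Asp array, so their directions are not independent of each other.

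The difference with aspirin in mice given LG21 was read from LG21+Asp and LG21+GA. In the genes following Alb it ran from -0.88 (Cyp2f2) to -0.02 (Hal), a direction that their selection by the order of Alb largely fixes. Of the 36, 0 were at least 2-fold lower, against 0.201% of all genes, and 0 were higher, against 0.00502%. The median was -0.24 over the 36 genes and 0 over all genes, and -1.49 over the squamous epithelium markers, whose part was not tested. For Cps1 the difference with aspirin was -0.75 among LG21-treated and -3.40 among vehicle-treated mice (to a GA+Asp value below background), for Cyp2e1 -0.66 and -3.11, and for Pck1 -0.32 and -1.48.

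**Figure D4:**
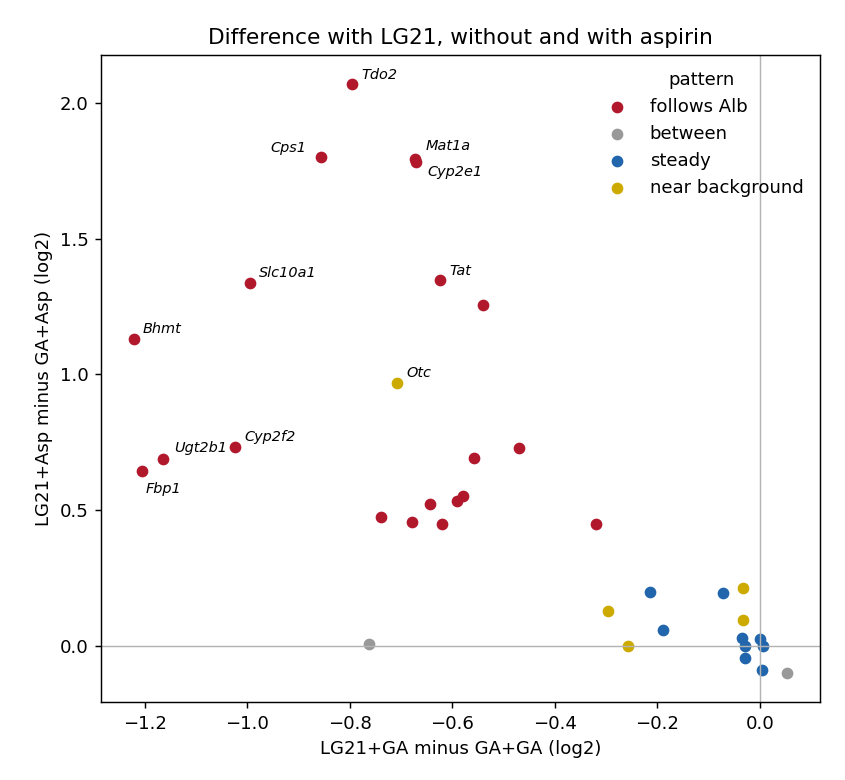
Log2 difference with LG21 in the absence of aspirin (x axis, LG21+GA minus GA+GA) and in its presence (y axis, LG21+Asp minus GA+Asp) for the 36 genes, 1 point per gene, coloured by pattern. The order of Alb, by which the red genes were chosen, places them in the upper left; the 11 named genes differ by at least 1.5-fold both ways, and Tdo2 and Cps1 are highest on the y axis with GA+Asp values below the background level.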

How the data were processed

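The authors deposited log2 values summarised by RMA in Expression Console, per the labels; the design text of the series names a different Affymetrix program. The scale was taken as log2 from the values (1.32 to 13.87), and the authors' normalization was kept. Software versions and a genome build are not given in the sources used here. Of 35557 probe sets, 21789 name 1 gene in the platform annotation, 1621 several and 12147 none. Where a gene had several, the one of highest mean stood for it. Differences were taken for 6 pairs of arrays, and counts cover genes at least 2-fold apart over all genes without a filter; 19 of the 36 genes had a mean above the median of all genes, 7.41. With 1 array per group no test was run; precision is limited by this number. The table has no detection calls, so olfactory receptor probe sets served as background level. All 38 genes are named by rule; from the other lists, up to 4 genes of the widest range and 2 steady ones, and up to 3 markers, by mean level. Genes and lists were chosen with earlier results of these data known. Sorting and counting were tested on simulated data. The genes planted there lay well above background in GA+GA, so genes low on that array were not covered. Python 3.11.15 and limma 3.58.1 (quantile, cyclic loess with 3 iterations) were used.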

Additional observations from a re-analysis of the deposited data

Results flagged for a closer look

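In 11 genes the difference with LG21 had opposite directions without and with aspirin, each at least 1.5-fold, which holds for 49 of all 19938 genes (0.246%), with 2 genes the other way round. Each such gene was lower in LG21+GA than in GA+GA and higher in LG21+Asp than in GA+Asp. The interaction, the aspirin difference in LG21-treated minus that in vehicle-treated mice, was 2.87 for Tdo2, 2.66 for Cps1, 2.47 for Mat1a and 2.45 for Cyp2e1. It was 2.35 for Bhmt, 2.33 for Slc10a1, 1.97 for Tat, 1.85 for Ugt2b1 and 1.85 for Fbp1. For Cyp2f2 it was 1.76 and for Otc 1.68. Of the 11, 10 followed Alb, and Otc had all 10 pairs in the order of Alb. In that order LG21+GA lies below GA+GA and LG21+Asp above GA+Asp. The opposite directions are thus largely fixed by the choice of these genes, and their count is no independent support. Otc was below background on all 5 arrays, and Tdo2, Cps1, Mat1a, Slc10a1, Ugt2b1 and Fbp1 were below it in GA+Asp, so that the sizes and order of their interaction values rest on values at the background level. Since every group had a single array, this difference between contrasts was not tested.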

How the results depend on the processing

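No paired analysis was possible because each group has 1 array, and no array could be left out for the same reason. Quantile normalization and cyclic loess kept the direction of all 6 median differences and moved none of the 216 differences of single genes by 0.1 or more. The deposited RMA values were already normalized, with array medians of 6.94 to 6.98, so these settings could hardly move them. Slc27a5, at the threshold, passed from following Alb to lying between under both normalizations. The number of genes following Alb stayed within 1.5 times of 20 under every alternative. The number lying between, 2, became 5 with all 10 pairs required in order, 4 with a steady range under 0.3 and 4 with Xist as background level, under which the number near background went to 0 and Otc followed Alb. For GA+Asp against GA+GA the 21 genes lower became 13 at 3-fold and 10 among genes above the median level. For LG21+GA against GA+GA the 4 lower genes became 17 at 1.5-fold, 0 at 3-fold and 2 above the median level. For Tep+Asp against GA+Asp the 1 higher gene became 6 at 1.5-fold and 0 at 3-fold or above the median level. For LG21+Asp the 8 genes higher than in GA+Asp became 14 at 1.5-fold and 4 at 3-fold, the 2 higher than in Tep+Asp became 8 and 0, and the 0 lower than in LG21+GA became 9 at 1.5-fold. The median for LG21+Asp against Tep+Asp was 0.20 among genes above the median level. With the mean of its 3 probe sets Bhmt gave -2.29 in GA+Asp and -0.81 in LG21+GA against GA+GA. Fewer genes or another threshold define these alternatives. Signal at or below background in GA+Asp limits 10 of the genes following Alb, 1 between, 1 steady and 5 near background.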
